A study of Homo sapiens with 8 samples.

Results

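The genes described here start, carry out or restrain apoptosis: CASP8, CASP9, CFLAR, XIAP, BIRC2, BIRC3, DIABLO and APAF1. These 8 genes were taken by symbol from expression tables of 56269 genes, and no measured value entered the rule that took them. The RNA came from SNU1079 and SSP25, 2 human cell lines of cholangiocarcinoma (CCA), a cancer of the bile ducts, which the labels give as liver tissue and wildtype in genotype. Wildtype is the word of the labels, and the authors' own sequencing found IDH1 and ARID1A mutations in SNU1079. Each line was harvested at 48 h in 4 states: BETp + mTORi, which is both drugs together at doses that the labels do not give; BETp alone (ARV825, a degrader of BET bromodomain proteins, 40 nM); mTORi alone (AZD8055, an inhibitor of the mTOR kinase, 50 nM); and vehicle (DMSO). There was 1 library per line and state, 8 in all, so the lines are the only replicates of a state, and cultured lines hold no stroma or immune cells.

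Values are TPM, a share of a library's transcripts corrected for transcript length. TPM keeps no record of read depth, so the depth and the counting error of a single value are unknown, and fewer cells carrying a transcript and less of it per cell cannot be told apart. Libraries of the same line correlated at 0.975 to 0.986 on the log2(TPM + 1) scale and libraries of different lines at 0.789 to 0.807, and 0 pairs were identical. Among 7 biliary markers the keratins were abundant in both lines, but EPCAM was at 0.90 to 1.74 TPM in SSP25 and CDH1 did not pass 1.40 TPM in any library. Summed hepatocyte, leukocyte and endothelial markers stayed at or below 3.70 TPM in every library, and of 4 fibroblast markers COL1A1 alone reached 1 TPM throughout a line, at 272 to 1003 TPM in SNU1079.

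Apoptosis is carried out by caspases, proteases that stay inactive until a complex brings initiator caspases together. Death receptors at the cell surface assemble one such complex on CASP8, where the CASP8-like protein of CFLAR (c-FLIP) competes for the same docking sites, and cytochrome c leaving the mitochondria assembles the other on APAF1, which recruits CASP9. Inhibitor of apoptosis (IAP) proteins restrain the cascade, XIAP by binding caspases and BIRC2 and BIRC3 (cIAP1 and cIAP2) as ubiquitin ligases at tumour necrosis factor receptors, and DIABLO (SMAC), once released from mitochondria, displaces them.

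All 8 genes were expressed in every library. In SNU1079 the mean over the 4 states was highest for BIRC2 at 105 ± 15.8 TPM, followed by DIABLO at 70.4 ± 4.63, CFLAR at 40.0 ± 7.58, CASP8 at 35.2 ± 6.32, BIRC3 at 24.1 ± 8.21, XIAP at 15.4 ± 2.64, APAF1 at 8.11 ± 0.607 and CASP9 at 7.51 ± 1.74 TPM (SD over states, n = 4). In SSP25 the order was DIABLO at 73.4 ± 2.79, BIRC2 at 59.3 ± 10.3, CASP8 at 36.3 ± 5.78, XIAP at 28.4 ± 2.92, CFLAR at 21.8 ± 4.95, CASP9 at 19.5 ± 3.04, BIRC3 at 19.4 ± 10.8 and APAF1 at 5.28 ± 1.16 TPM (SD over states, n = 4). In SNU1079 the ranges of neighbours in this order overlapped for CFLAR and CASP8, CASP8 and BIRC3, BIRC3 and XIAP, and APAF1 and CASP9. In SSP25 they overlapped for all neighbours other than BIRC2 above CASP8 and BIRC3 above APAF1.

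**Figure D1:**
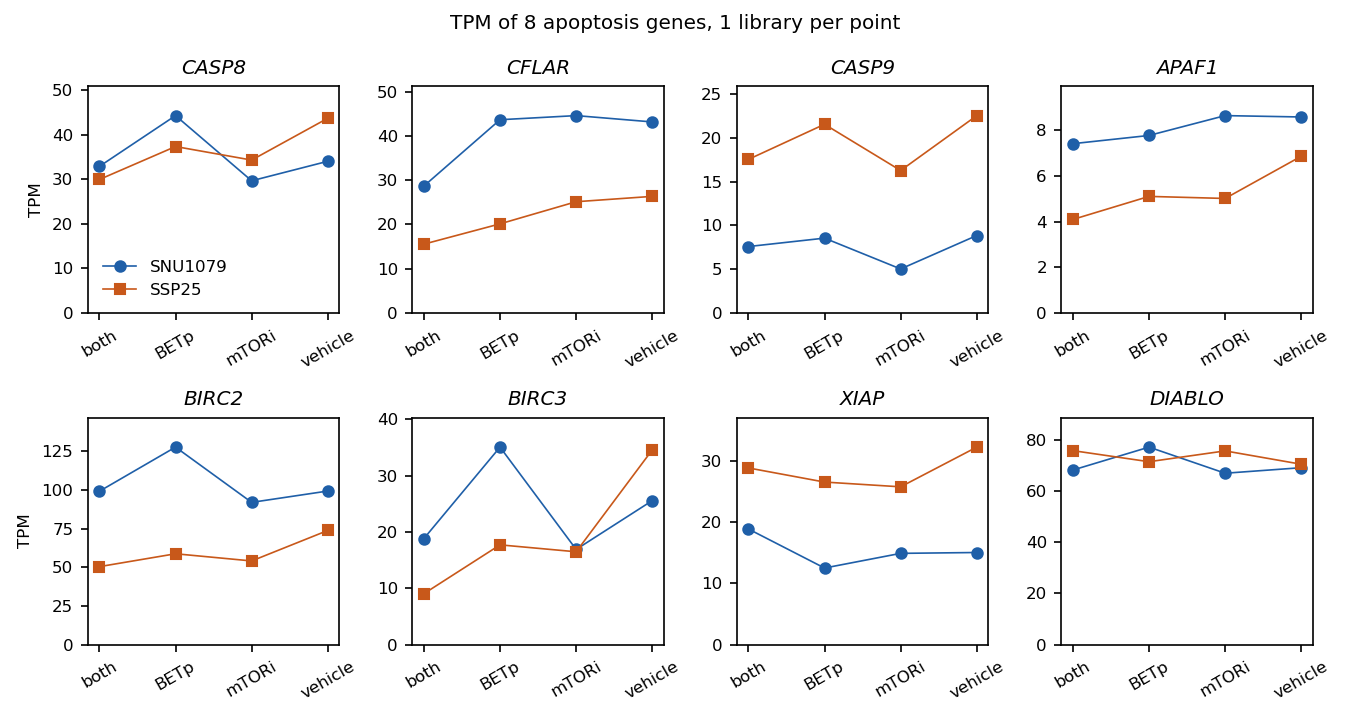
TPM (y axis, from 0) of each of the 8 genes in the 4 states (x axis; both, BETp + mTORi), with circles for SNU1079, squares for SSP25 and 1 library per point. The lines stand apart in all states for CASP9, CFLAR, XIAP, BIRC2 and APAF1, and BIRC3 in SSP25 spans 9.03 to 34.6 TPM.

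The levels of 5 of the 8 genes differed between the lines in a limma model with treatment and cell line, where 74% of all 16060 genes tested did so. CFLAR (0.85 ± 0.09 on the log2 scale, SNU1079 minus SSP25, SE; limma adjusted p = 0.000129), BIRC2 (0.81 ± 0.12; limma adjusted p = 0.000561) and APAF1 (0.55 ± 0.12; limma adjusted p = 0.00442) were higher in SNU1079. CASP9 (-1.28 ± 0.11; limma adjusted p = 3.2e-05) and XIAP (-0.86 ± 0.11; limma adjusted p = 0.000297) were lower in SNU1079. For these 5 genes the ranges of the lines did not overlap (the share of all genes with that pattern is not given here). They overlapped for CASP8 (-0.05 ± 0.12), DIABLO (-0.06 ± 0.08) and BIRC3 (0.39 ± 0.24), which were not called. BIRC3 was called, at 0.65, when the vehicle library of SNU1079 or of SSP25 was left out, which made 6 of 8.

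The combination was set against vehicle to ask what both drugs together did to these transcripts. None of the 8 genes passed the threshold (0 of 8 called by limma), and 1.81% of all genes tested did, 47 of them higher and 244 lower (21 genes, 12 of them higher, after quantile normalization). At an unadjusted p below 0.05 there were 3 of the 8 genes and 25.8% of all genes, the share against which such counts of the combination are to be read. The median difference was -0.28 over the 8 genes and -0.19 over all genes tested, on the log2(TPM + 1) scale, so values below vehicle were common in these libraries; quantile normalization, which sets that of all genes near 0, put the 8 genes at -0.04. Of the 8 genes 6 were lower in both lines, a pattern found in 51% of all genes, and XIAP and DIABLO were the exceptions. Other scalings kept fewer: rescaling without the mitochondrial genome left CASP9, CFLAR, BIRC3 and APAF1 lower in both lines (43.6% of all genes), and quantile normalization left CFLAR and BIRC3 (27.8% of all genes). The lowest values were those of BIRC3 and CFLAR, and they differed in how far the lines agreed.

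**Figure D2:**
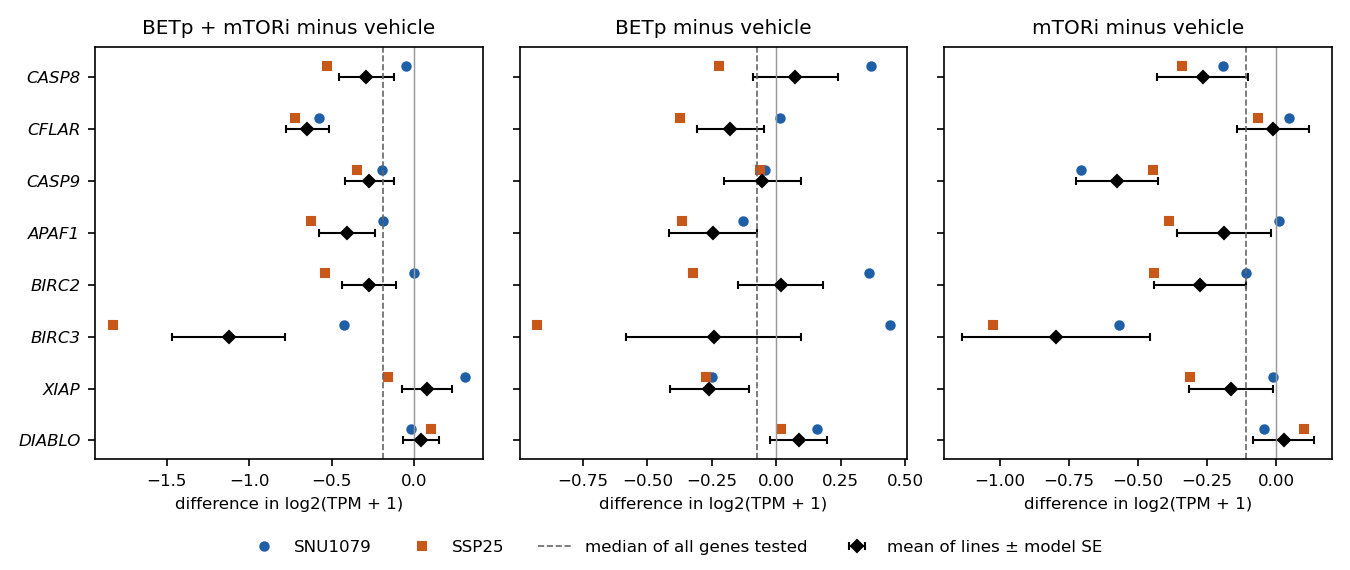
Difference in log2(TPM + 1) (x axis) of BETp + mTORi, BETp and mTORi from vehicle, with circles for SNU1079, squares for SSP25 and diamonds with bars for the mean of the lines ± the SE of the limma model; dashed lines mark the median of all genes tested. Under the combination CFLAR is at -0.65 ± 0.13 with both lines close together, and BIRC3 is at -1.12 ± 0.34 with the lines far apart.

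At the death receptors, CFLAR was the gene nearest to the threshold. CFLAR was at 28.7 TPM with BETp + mTORi, 43.7 with BETp, 44.6 with mTORi and 43.2 with vehicle in SNU1079. The SSP25 libraries had 15.6 TPM with BETp + mTORi, 20.1 with BETp, 25.1 with mTORi and 26.4 with vehicle. The combination library was the lowest of its line in both, by 33.5% below vehicle in SNU1079 and 40.9% below vehicle in SSP25. Single-drug libraries of SNU1079 lay within 3.31% of vehicle, whereas in SSP25 BETp alone was 23.6% below vehicle and mTORi alone 4.59% below. The combined difference was -0.65 ± 0.13 (limma adjusted p = 0.0560, place 454 of 16060 by p), and among genes at 5 TPM or more it passed the threshold (limma adjusted p = 0.0430, 11772 genes). Quantile normalization gave -0.42 (limma adjusted p = 0.162). The difference from the sum of the single-drug values was -0.46 ± 0.18 for CFLAR (limma adjusted p = 1.00), and 0 of the 8 genes and 0% of all genes were called by limma for such a departure. At an unadjusted p below 0.05 there were 322 of all genes, and CFLAR was the 1 of the 8 among them.

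CASP8, the initiator that CFLAR competes with, had 32.9 TPM with BETp + mTORi, 44.3 with BETp, 29.7 with mTORi and 34.1 with vehicle in SNU1079. In SSP25 it had 29.97, 37.4, 34.3 and 43.7 TPM in the same order of states. BETp was the highest state in SNU1079 and vehicle the highest in SSP25, and the combination was -0.29 ± 0.16 from vehicle (limma adjusted p = 0.306). Within a library, the ratio of CFLAR to CASP8 was 0.871 with BETp + mTORi, 0.985 with BETp, 1.5 with mTORi and 1.27 with vehicle in SNU1079. In SSP25 this ratio was 0.519 with BETp + mTORi, 0.539 with BETp, 0.732 with mTORi and 0.603 with vehicle. The order of the 4 states was the same in both lines, with mTORi at the top and the combination at the bottom, and SNU1079 held the higher ratio in each state; the ratio was not tested.

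The genes for CFLAR and CASP8 lie on the same strand of chromosome 2, 56755 bp apart (GRCh37, GENCODE 44: CFLAR at chr2:201980877-202041410 and CASP8 at chr2:202098166-202226559). CFLAR overlaps the antisense gene CFLAR-AS1; libraries were made to keep strand, but how the authors' counting used it is not given in the sources used here. The RefSeq promoters of the 8 genes (GRCh38.p14; 250 bases before to 50 after each start site, several start sites for some genes) were searched on both strands for the kappaB consensus, the binding motif of NF-kB, since BIRC3 and CFLAR are textbook NF-kB targets. BIRC3 held 2 matches, CFLAR 1 at the first of its start sites and the other 6 genes none, where 13.3% of 27305 genes with a promoter in the RefSeq table held at least 1. Searches for AP-1 (TGANTCA), the E-box (CACGTG) and an element of ATF4 found AP-1 in CASP8 at a pair of start sites and in CFLAR at another start site (9.37% of genes), the E-box in DIABLO (8.77% of genes) and the ATF4 match in none of the 8 (4.46% of genes). The kappaB match in CFLAR spans bases -97 to -88 from the start site, and those in BIRC3 span -199 to -190 and -135 to -126. The sequences are shown for the 2 genes with matches and, for contrast, for BIRC2, the neighbour of BIRC3, whose first listed start site has none. They run 5′ to 3′ on the plus strand, which is that of each gene, over the 250 bases before the start site, with kappaB matches in capitals. A match is a description of letters and no evidence of binding.
CFLAR, chr2:201118466-201118715: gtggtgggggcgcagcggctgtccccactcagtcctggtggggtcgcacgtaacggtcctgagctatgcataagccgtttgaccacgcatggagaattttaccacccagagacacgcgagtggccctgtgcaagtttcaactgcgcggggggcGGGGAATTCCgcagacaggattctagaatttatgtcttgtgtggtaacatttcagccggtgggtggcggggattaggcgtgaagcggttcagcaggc
BIRC3, chr11:102317234-102317483: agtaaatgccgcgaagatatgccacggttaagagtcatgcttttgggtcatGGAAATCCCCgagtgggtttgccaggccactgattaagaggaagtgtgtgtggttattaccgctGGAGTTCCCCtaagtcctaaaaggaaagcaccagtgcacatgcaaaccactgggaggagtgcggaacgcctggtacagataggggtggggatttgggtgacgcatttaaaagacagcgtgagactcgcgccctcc
BIRC2, chr11:102346964-102347213: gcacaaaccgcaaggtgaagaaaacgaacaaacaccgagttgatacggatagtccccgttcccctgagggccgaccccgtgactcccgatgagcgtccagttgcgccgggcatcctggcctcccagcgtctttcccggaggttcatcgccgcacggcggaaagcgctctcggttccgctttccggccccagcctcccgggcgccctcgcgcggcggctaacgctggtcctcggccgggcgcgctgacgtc

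On the mitochondrial side, CASP9 was lowest with mTORi alone. It was at 7.59 TPM with BETp + mTORi, 8.55 with BETp, 5.03 with mTORi and 8.85 with vehicle in SNU1079. The SSP25 values were 17.5 TPM with BETp + mTORi, 21.6 with BETp, 16.3 with mTORi and 22.5 with vehicle. In both lines BETp alone left CASP9 within 4.39% of vehicle and both libraries with mTORi lay below both without it. Against vehicle, mTORi alone gave -0.58 ± 0.15 (limma adjusted p = 0.413) and the combination gave -0.27 ± 0.15 (limma adjusted p = 0.290). With mTORi alone 0 of 8 genes and 0.0125% of all genes were called by limma, and CASP9 was the 1 of the 8 at an unadjusted p below 0.05, where 10.3% of all genes were.

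APAF1, the scaffold that activates CASP9, was among the lowest of the 8 genes in both lines. It was at 7.42 TPM with BETp + mTORi, 7.78 with BETp, 8.65 with mTORi and 8.59 with vehicle in SNU1079. For SSP25 the values were 4.10 TPM with BETp + mTORi, 5.11 with BETp, 5.02 with mTORi and 6.87 with vehicle. Libraries with BETp were below their partners without it in all 4 pairs, as in 23.2% of all genes, and APAF1 was the only 1 of the 8 genes with that pattern. The combination was -0.41 ± 0.17 from vehicle (limma adjusted p = 0.190). The ratio of CASP9 to APAF1 was 1.02 with BETp + mTORi, 1.10 with BETp, 0.582 with mTORi and 1.03 with vehicle in SNU1079, against 4.28, 4.22, 3.24 and 3.28 in the same order in SSP25. It was more than 3 times as high in SSP25 as in SNU1079 in every state.

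Among the IAP genes, BIRC3 varied the most and followed a different order of states in each line. BIRC3 was at 18.8 TPM with BETp + mTORi, 35.1 with BETp, 16.9 with mTORi and 25.6 with vehicle in SNU1079. In SSP25 it was at 9.03 TPM with BETp + mTORi, 17.7 with BETp, 16.5 with mTORi and 34.6 with vehicle. Vehicle was the highest library in SSP25, each drug alone was at close to the same level there and the combination was lowest, while in SNU1079 BETp was the highest and mTORi the lowest. The combination was 73.9% below vehicle in SSP25, where 0.535% of genes had a lower difference, and 26.4% below in SNU1079, where 24.7% of genes had a lower one. The fit over both lines was -1.12 ± 0.34 (limma adjusted p = 0.107), and without the vehicle library of SSP25 it was -0.59 (limma adjusted p = 0.398), or -1.66 without that of SNU1079. For mTORi alone against vehicle BIRC3 was at -0.80 ± 0.34 (limma adjusted p = 0.484), from -1.34 without the vehicle library of SNU1079 to -0.26 without that of SSP25.

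BIRC2, the other ubiquitin ligase of the pair, lies 7807 bp from BIRC3 on chromosome 11 (GRCh37: BIRC3 at chr11:102188215-102210134 and BIRC2 at chr11:102217942-102249401), and the 2 genes are paralogs that read counting could split unevenly where their sequences are alike. BIRC2 was at 99.3 TPM with BETp + mTORi, 128 with BETp, 92.1 with mTORi and 99.4 with vehicle in SNU1079. SSP25 had 50.4 TPM with BETp + mTORi, 58.8 with BETp, 54.1 with mTORi and 73.9 with vehicle. The order of states was that of BIRC3 in each line, although in SNU1079 the combination and vehicle were only 0.151% apart. BIRC2 was at -0.27 ± 0.17 for the combination (limma adjusted p = 0.332), from -0.53 without the vehicle library of SNU1079 to -0.013 without that of SSP25. The ratio of BIRC3 to BIRC2 was 0.190 with BETp + mTORi, 0.274 with BETp, 0.183 with mTORi and 0.257 with vehicle in SNU1079. In SSP25 it was 0.179 with BETp + mTORi, 0.301 with BETp, 0.304 with mTORi and 0.468 with vehicle, so the lines were furthest apart with vehicle and nearly level with both drugs.

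XIAP, the caspase-binding IAP, was the gene whose combination value was above both single-drug values in each line. XIAP was at 18.9 TPM with BETp + mTORi, 12.5 with BETp, 14.9 with mTORi and 15.1 with vehicle in SNU1079. In SSP25 it was at 28.9 TPM with BETp + mTORi, 26.6 with BETp, 25.8 with mTORi and 32.3 with vehicle. The combination was the highest library of SNU1079 but lay between vehicle and the single drugs in SSP25. The combined difference from vehicle was 0.08 ± 0.15 (limma adjusted p = 0.772), and the departure from the sum of the single-drug values was 0.50 ± 0.22 (limma adjusted p = 1.00). XIAP has processed pseudogenes and overlaps the antisense gene XIAP-AS1, so reads shared with the pseudogenes or, depending on how strand was counted, with XIAP-AS1 are uncertain in these values.

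DIABLO, the IAP antagonist, varied the least of the 8 genes. It was at 68.3 TPM with BETp + mTORi, 77.2 with BETp, 67.0 with mTORi and 69.2 with vehicle in SNU1079. Levels in SSP25 were 75.8 TPM with BETp + mTORi, 71.5 with BETp, 75.7 with mTORi and 70.5 with vehicle. The highest library was 1.153 times the lowest in SNU1079 and 1.08 times in SSP25, against 3.83 times for BIRC3 in SSP25, and the combination was 0.04 ± 0.11 from vehicle (limma adjusted p = 0.829). The ratio of XIAP to DIABLO was 0.277 with BETp + mTORi, 0.162 with BETp, 0.223 with mTORi and 0.218 with vehicle in SNU1079, against 0.381, 0.372, 0.341 and 0.458 in the same order in SSP25. SSP25 held more XIAP per DIABLO in each state.

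**Figure D3:**
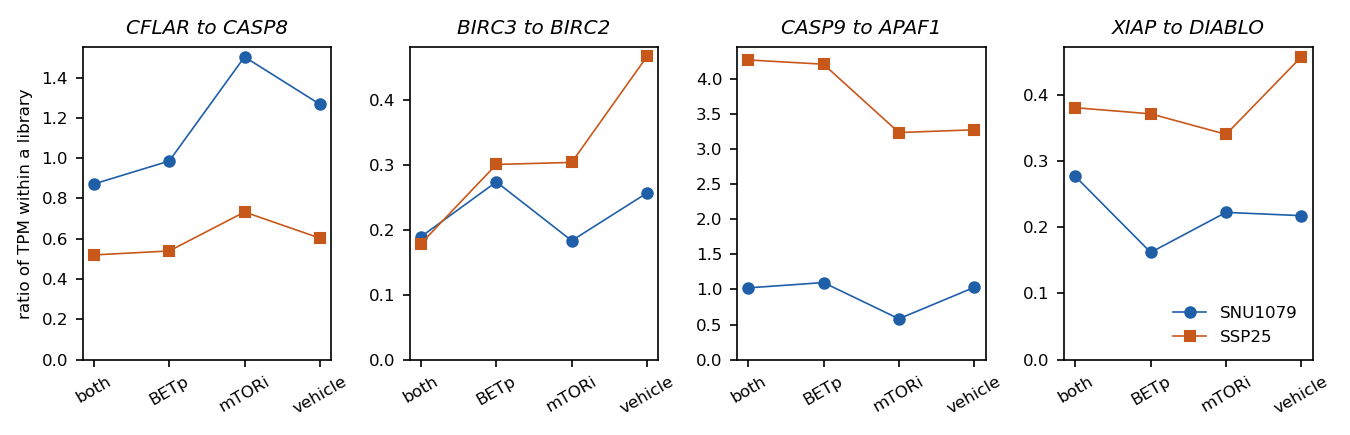
Ratio of TPM within a library (y axis, from 0) for 4 functional pairs in the 4 states (x axis; both, BETp + mTORi), with circles for SNU1079, squares for SSP25 and 1 library per point, untested. CFLAR to CASP8 has the same order of states in both lines, from 1.5 with mTORi to 0.871 with both drugs in SNU1079, and BIRC3 to BIRC2 nearly meets with both drugs at 0.190 in SNU1079 and 0.179 in SSP25.

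Using all 4 pairs of libraries that differ by mTORi gave a firmer estimate of the effect of that drug, averaged over the presence of BETp. CASP8, CASP9, BIRC2 and BIRC3 were lower with mTORi in all 4 pairs, as were 26.2% of all genes; after quantile normalization only CASP8 and BIRC3 of these kept that pattern, held by 11.4% of all genes. The averaged values were -0.84 ± 0.23 for BIRC3 (limma adjusted p = 0.0919), -0.40 ± 0.11 for CASP9 (limma adjusted p = 0.103), -0.31 ± 0.11 for CASP8 (limma adjusted p = 0.146) and -0.28 ± 0.11 for BIRC2 (limma adjusted p = 0.180). Of the 8 genes 0 were called by limma and 1.05% of all genes were; at an unadjusted p below 0.05 there were these 4 of the 8 and 22% of all genes. The other 4 lay between -0.24 for CFLAR and 0.09 for XIAP, beside a median of -0.11 over all genes.

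For BETp averaged over the presence of mTORi, 0 of 8 genes and 1.82% of all genes were called by limma. CFLAR had the largest value, -0.41 ± 0.12 (limma adjusted p = 0.106), and was the 1 gene of the 8 at an unadjusted p below 0.05, where 22.8% of all genes were. BETp alone against vehicle gave 0 calls among the 8 genes at either level of p, with 0.00623% of all genes called by limma and 8.90% at an unadjusted p below 0.05, and XIAP was lowest at -0.26 ± 0.15 (limma adjusted p = 0.652). CASP8, BIRC2 and BIRC3 lay between -0.28 and 0.07 in both fits, with the lines on opposite sides of 0.

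These 3 genes were higher with BETp in both SNU1079 pairs and lower with BETp in both SSP25 pairs, a pattern held by 5.66% of all genes and kept by the same 3 under quantile normalization and under rescaling without the mitochondrial genome. With BETp alone CASP8 was 30.1% above vehicle, BIRC2 28.6% above and BIRC3 37.2% above in SNU1079. In SSP25 they were 14.5%, 20.4% and 48.8% below vehicle in the same order. The difference between the lines in the BETp effect, SNU1079 minus SSP25, was 1.16 ± 0.16 for BIRC3 (limma adjusted p = 0.184, place 61 of 16060), 0.46 ± 0.13 for CASP8 (limma adjusted p = 0.299) and 0.45 ± 0.14 for BIRC2 (limma adjusted p = 0.324). None of these passed the threshold: 0 of 8 genes and 0.00623% of all genes were called by limma, and the same 3 were at an unadjusted p below 0.05, as were 12.4% of all genes. The value was above 0 for all 8 genes, with a median of 0.21 beside 0.02 over all genes (the share of all genes above 0 is not given here). For CASP9, CFLAR and XIAP it crossed 0 when 1 library was left out. The line difference in the mTORi effect ran from -0.20 for DIABLO to 0.37 for XIAP, with 0 of 8 genes and 0% of all genes called and 0 of the 8, against 14.2% of all genes, at an unadjusted p below 0.05.

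**Figure D4:**
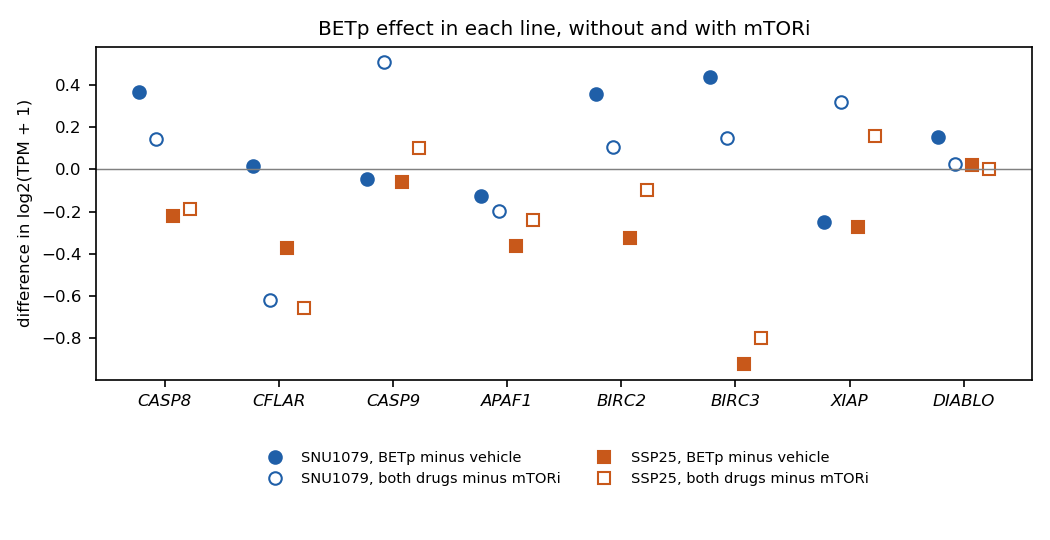
Difference in log2(TPM + 1) (y axis) between libraries with and without BETp for each gene (x axis), filled where mTORi was absent and open where it was present, with circles for SNU1079 and squares for SSP25. CASP8, BIRC2 and BIRC3 lie above 0 at both SNU1079 points and below 0 at both SSP25 points.

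CASP8, BIRC2 and BIRC3 also followed each other across states, and the order of the 4 states was the same for all 3 in each line. After each line's mean was subtracted, their log2(TPM + 1) values correlated at 0.976 for CASP8 with BIRC2, 0.935 for CASP8 with BIRC3 and 0.932 for BIRC2 with BIRC3 over the 8 libraries. These are descriptions over 4 states in each of 2 lines, and all genes of a library share its composition. DIABLO, XIAP and APAF1 each had a positive correlation with CASP8 in one line and a negative one in the other: DIABLO correlated with it at 0.989 in SNU1079 and -0.900 in SSP25, XIAP at -0.644 in SNU1079 and 0.504 in SSP25, and APAF1 at -0.430 in SNU1079 and 0.978 in SSP25. Among 10642 genes with a mean of at least 5 TPM, the one most like each gene by the same measure was RTN4 for CASP8 (0.984), CHFR for CASP9 (0.979), SH3D19 for CFLAR (0.988), LCMT1 for XIAP (0.976), TCAIM for BIRC2 (0.979), MRPS18C for BIRC3 (0.991), MAN2B1 for DIABLO (0.969) and HNRNPR for APAF1 (0.993). Each is the highest of 10642 correlations over 8 libraries, and how high that maximum runs for other genes is not given here.

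The surrounding pathway was read from 7 lists of related genes. Under the combination the median of all genes tested was -0.19, so most genes were below 0. Counts below 0 in all of the lists are to be read against that. The share of all genes below 0 in this fit is not given here, so these counts do not set a list apart. Of the 14 genes listed as death receptors and ligands, 10 were expressed enough to test and 1, TNFSF10, was called under the combination. Below 0 in all 3 scalings were 9 of the 10, with a median of -0.41, or -0.19 after quantile normalization. TNFSF10, which encodes the death ligand TRAIL, was at 4.46 TPM with BETp + mTORi, 7.59 with BETp, 5.80 with mTORi and 12.8 with vehicle in SNU1079, against 2.03, 4.21, 4.25 and 8.42 TPM in the same order in SSP25. It fell by 1.48 ± 0.18 on the log2 scale under the combination (limma adjusted p = 0.0315) and was also called for BETp (-0.66 ± 0.12) and mTORi (-0.82 ± 0.12) averaged over the other drug. Its combination call held in 3 of 7 other settings and without 2 of 8 libraries, the mTORi library of either line, and its averaged calls held with the filter at 5 TPM alone. FAS, a death receptor that signals through CASP8, was at 14.1 TPM with BETp + mTORi and 20.1 with vehicle in SNU1079, and at 2.55 with BETp + mTORi and 9.09 with vehicle in SSP25 (-0.998 ± 0.244, limma adjusted p = 0.0746).

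Of 14 death-domain and TRAF adaptor genes 13 were tested, with a median of -0.18 (0.05 after quantile normalization) and 1 called. This was MLKL, the pore-forming effector of necroptosis, a death program that active CASP8 holds back. MLKL was at 1.91 TPM with BETp + mTORi, 4.66 with BETp, 5.24 with mTORi and 7.79 with vehicle in SNU1079, and at 5.92, 7.85, 11.2 and 13.3 TPM in the same order in SSP25. It fell by 1.32 ± 0.19 on the log2 scale under the combination (limma adjusted p = 0.0393) and by 0.81 ± 0.13 for averaged BETp (limma adjusted p = 0.0380), calls that held in 1 of 7 other settings, the filter at 5 TPM, and without 0 of 8 libraries. RIPK3, the kinase that activates MLKL, was below the level for testing. TRAF3, an adaptor that works with BIRC2 and BIRC3, was at -0.57 ± 0.14 (limma adjusted p = 0.0765).

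All 12 NF-kB feedback genes, a set of inhibitors, subunits and regulators of the pathway, were below 0 under the combination (9 of 12 after quantile normalization). Their median was -0.44 (-0.22 after quantile normalization), and 0 were called by limma (6 at an unadjusted p below 0.05, where 25.8% of all genes were). NFKBIB, which encodes an inhibitor that holds NF-kB in the cytoplasm, was at 14.1 TPM with BETp + mTORi, 19.8 with BETp, 16.2 with mTORi and 23.9 with vehicle in SNU1079, and at 27.7, 39.3, 29.8 and 39.6 TPM in the same order in SSP25. NFKBIB (-0.47 ± 0.08, limma adjusted p = 0.0428) and BCL3 (-0.52 ± 0.09, limma adjusted p = 0.0482), a nuclear NF-kB partner, were called lower for averaged mTORi, which held only with the filter at 5 TPM among 7 settings and without 0 of 8 libraries. TNFAIP3, a ubiquitin-editing brake on NF-kB, was at 19.7 TPM with BETp + mTORi and 39.0 with vehicle in SSP25 and at no more than 3.74 TPM in SNU1079.

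**Figure D5:**
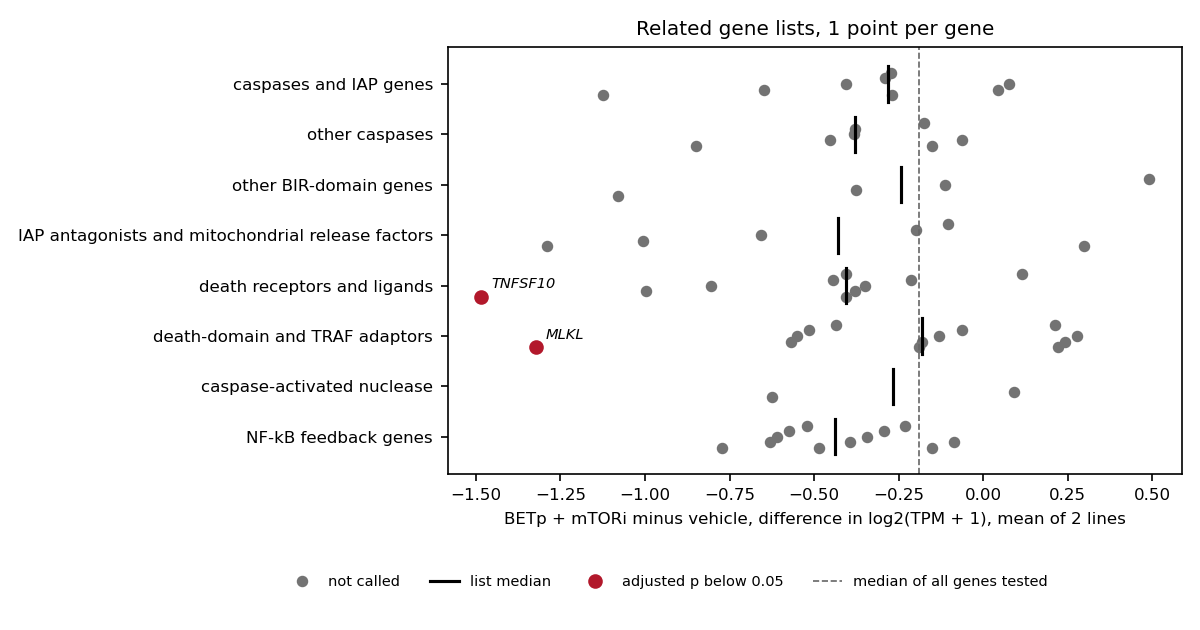
Difference of BETp + mTORi from vehicle in log2(TPM + 1), mean of 2 lines (x axis), for each tested gene of the 8 and of 7 related lists (rows), with bars at list medians, a dashed line at the median of all genes and large red points for genes at a limma adjusted p below 0.05. TNFSF10 at -1.48 and MLKL at -1.32 are the genes called, and the 8 caspase and IAP genes run from -1.12 to 0.08.

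Downstream and beside the 8 genes, 7 of 10 other caspases were tested and all 7 were below 0 under the combination (4 of 7 after quantile normalization). Their median was -0.38 (-0.14 after quantile normalization), and 0 were called by limma (2 at an unadjusted p below 0.05, where 25.8% of all genes were). CASP1, an inflammatory caspase, was at 1.16 TPM with BETp + mTORi and 2.82 with vehicle in SNU1079, and at 35.7 with BETp + mTORi and 66.5 with vehicle in SSP25 (-0.85 ± 0.17, limma adjusted p = 0.0559, or 0.0418 among genes at 5 TPM or more). BIRC5 (survivin), a mitotic member of the IAP family, was at 34.0 TPM with BETp + mTORi and 47.8 with vehicle in SNU1079, and at 25.9 with BETp + mTORi and 85.2 with vehicle in SSP25 (-1.08 ± 0.28, limma adjusted p = 0.0835; from -1.56 without the vehicle library of SNU1079 to -0.59 without that of SSP25). BIRC8 was at 0 TPM in all 8 libraries, and the other BIR-domain genes had 0 calls of 4 tested (1 at an unadjusted p below 0.05).

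DIABLO shares its role with HTRA2, a mitochondrial protease that also displaces IAPs. HTRA2 was at 29.6 TPM with BETp + mTORi and 19.7 with vehicle in SNU1079, and at 36.9 with BETp + mTORi and 35.96 with vehicle in SSP25 (0.30 ± 0.15, limma adjusted p = 0.264). AIFM1, another protein released from mitochondria, was at 33.1 TPM with BETp + mTORi and 58.7 with vehicle in SNU1079, and at 56.1 with BETp + mTORi and 80.2 with vehicle in SSP25 (-0.66 ± 0.13, limma adjusted p = 0.0559, or 0.0430 among genes at 5 TPM or more). The 6 antagonists and release factors had a median of -0.43 under the combination, with 5 of 6 below 0. After quantile normalization the median was -0.20, with 3 of 6 below 0. Limma called 0 of them (3 at an unadjusted p below 0.05, where 25.8% of all genes were). The genes of the caspase-activated nuclease, DFFA and DFFB, were not called either (1 of 2 at an unadjusted p below 0.05).

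Between the lines, where 74% of all genes were called, the same lists divided as follows. Lower in SNU1079 than in SSP25 were CASP1 (-4.12 on the log2 scale), CASP4 and CASP10 among the other caspases, with CASP6 higher (0.58). BIRC7 (3.57), NAIP and BIRC6 were higher in SNU1079, as was CYCS (0.92), the cytochrome c that binds APAF1. XAF1 (-2.78), a XIAP antagonist, and SEPT4, ENDOG, HTRA2, AIFM1, DFFA and DFFB were lower. Of the receptors and ligands FAS, TNFSF10, TNFRSF10A, TNFRSF10C, TNFRSF10D, TNFRSF21 (1.66) and TNFRSF25 were higher in SNU1079, and TNFRSF11B (-4.32) and TNFRSF1A were lower. Of the adaptors RBCK1, RNF31 and TRADD were higher, and CYLD, FADD, MLKL, RIPK1, SHARPIN, TRAF1, TRAF2 (-1.24) and TRAF3 were lower. Of the NF-kB feedback genes MAP3K14 and REL were higher in SNU1079, and BCL3, NFKB1, NFKBIA, NFKBIB, NFKBIE, RELA, RELB, TNFAIP3 (-2.95) and TNIP1 were lower. BIRC7 and NAIP did not pass 0.19 TPM in SSP25, and XAF1, SEPT4 and TNFRSF11B did not pass 0.47 TPM in SNU1079. CASP10 reached 1 TPM in SNU1079 with BETp only, at 1.21 TPM. These genes passed the filter only through the line where they were high. Their calls and sizes therefore rest on the filter and the pseudocount.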

How the data were processed

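RNA was extracted from 8 cultures (2 CCA lines, 4 states, 48 h), and strand-specific libraries were sequenced. The authors deposited gene-level TPM, rounded to 2 decimals, in 1 table per line; the submitters' processing notes name the GRCh37 build, DESeq2 and edgeR (aligner and quantifier: not given in the sources used here). As a normalized unit, TPM takes no count test and keeps no depth, so no counting interval can be given. Tables were joined by gene symbol. Values were tested as log2(TPM + 1), a scale that understates changes of low genes, for the 16060 genes that reached 1 TPM in 2 or more libraries, with limma 3.58.1 in R 4.3.3 (lmFit, eBayes with intensity trend, Benjamini-Hochberg over all genes tested, threshold 0.05).

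The models were treatment + cell line (3 residual degrees of freedom), BETp + mTORi + cell line for effects averaged over the other drug (4), and cell line by each drug for line differences (2). Libraries of a line are paired by the cell line in the labels, and their deviations from the state means correlated at 0.911 to 0.936. As each line and state is 1 library, no p-value measures the spread between repeat cultures. In the treatment + cell line model the residual spread is disagreement between the lines in the differences between states. The averaged model adds the departure from additivity to that spread. In the line-difference model the residual spread is the departure from additivity within each line. The members and the related lists were chosen with earlier results of these data known. All 8 members are named; of the related lists, genes called in any comparison and the 2 per list with the largest combination change of the same sign in both lines at a mean of 5 TPM or more are named; RIPK3 and BIRC8, outside this rule, were named after their values were seen. A result that the rule would name is not reported here. Columns of all 8 libraries were matched to samples by the tags in their titles. The steps were tested on simulated data. Alternatives were quantile normalization, a filter at 5 TPM or none, a pseudocount of 0.1, rescaling without genes of the mitochondrial genome, a robust fit without trend, no cell line block, and leaving out each library.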

Additional observations from a re-analysis of the deposited data

Results flagged for a closer look

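BIRC3, CASP8 and BIRC2 were flagged because they were higher with BETp in both SNU1079 pairs of libraries and lower in both SSP25 pairs (5.66% of all genes). DIABLO was flagged because it was lower with mTORi in both SNU1079 pairs and higher in both SSP25 pairs. For DIABLO these differences were small, 3.14% and 11.6% below the partner library in SNU1079 and 7.40% and 6.06% above it in SSP25. The share of all genes with the pattern of DIABLO is not given here. The line difference in the BETp effect (SNU1079 minus SSP25, log2 scale) was 1.16 for BIRC3, 0.46 for CASP8 and 0.45 for BIRC2, and the line difference in the mTORi effect was -0.20 for DIABLO. The interaction term of limma passed the threshold for none of the 4 (adjusted p = 0.184, 0.299 and 0.324 for BIRC3, CASP8 and BIRC2, and 0.447 for DIABLO). When each library was left out in turn, BIRC3 stayed between 1.01 and 1.31, CASP8 between 0.35 and 0.58 and BIRC2 between 0.32 and 0.57. Leaving out a library left the BETp effect of its line resting on the remaining pair of that line. The flag had already set the sign of every pair, so these ranges could not cross 0 and are no support for it. The interaction term also used the values that the flag used.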

How the results depend on the processing

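Of the 8 genes, 0 were called in every drug comparison under each alternative, except that CFLAR was called for the combination with the filter at 5 TPM (1 gene; 11772 genes tested). Between lines 5 were called, or 5 to 6 with 1 library left out. The count over all genes was unstable. For the combination 291 genes became 86 with a pseudocount of 0.1, 2 with no filter, 657 with the filter at 5 TPM, 21 with quantile normalization (12 higher), 89 after rescaling without the mitochondrial genome (27 higher), 9 with a robust fit without trend and 0 with no replicate block, that is, without pairing by cell line. For averaged BETp 292 (74 higher) became, after no filter, the filter at 5 TPM, quantile normalization, rescaling, the robust fit and no block, 21, 476, 175 (112 higher), 154, 74 and 0. For averaged mTORi 168 became 18 with the pseudocount, 2 with no filter, 483 at 5 TPM, 9 with quantile normalization, 49 after rescaling, 1 with the robust fit and 0 with no block. BETp alone gave 1, or 0 with the pseudocount or no block; mTORi alone gave 2, or 3 at 5 TPM, 0 with the pseudocount or no block and 1 with no filter, quantile normalization or the robust fit. Additivity gave 0, or 1 with the robust fit; the line difference in the BETp effect gave 1, or 0 with the pseudocount or no filter and 37 at 5 TPM, and that in the mTORi effect gave 0, or 9 at 5 TPM. Leaving out any 1 library gave 0 to 136 genes for the combination, 0 to 4 for BETp alone, 0 to 4 for mTORi alone, 0 to 1 for additivity, 37 to 224 for averaged BETp, 1 to 7 for averaged mTORi and 0 for the line difference in the BETp effect. Those fits keep fewer residual degrees of freedom.

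Of the values of the 8 genes under alternatives, 966 kept direction and side of the threshold, 3 passed it and 87 changed sign, none of them called. Quantile normalization moved the median of all genes under the combination to 0.0010, against -0.19, and gave 0.035 for CASP9 with BETp, 0.12 for CFLAR with mTORi, 0.012 for BIRC2 additivity, 0.12 for CASP8 and 0.15 for DIABLO between lines, 0.085 for XIAP under averaged BETp, 0.13 for DIABLO under averaged mTORi and -0.0024 for the CASP8 line difference in the mTORi effect. Rescaling gave 0.017 for CFLAR with mTORi, 0.090 for CASP8 and 0.077 for DIABLO between lines, 0.028 for XIAP under averaged BETp and 0.025 for DIABLO under averaged mTORi. The cause was not tested. With 1 library left out, the values that crossed 0 ranged for the combination from -0.10 to 0.26 (XIAP) and -0.017 to 0.10 (DIABLO); for BETp alone from -0.13 to 0.28 (CASP8), -0.24 to 0.28 (BIRC2), -0.78 to 0.29 (BIRC3) and -0.025 to 0.20 (DIABLO); for mTORi alone from -0.12 to 0.10 (CFLAR) and -0.048 to 0.10 (DIABLO); for additivity from -0.30 to 0.11 (CASP8), -0.27 to 0.25 (BIRC2), -0.62 to 0.45 (BIRC3), -0.19 to 0.039 (DIABLO) and -0.15 to 0.21 (APAF1); between lines from -0.14 to 0.056 (CASP8); for averaged BETp from -0.063 to 0.090 (CASP8), -0.14 to 0.10 (XIAP), -0.088 to 0.11 (BIRC2) and -0.00061 to 0.089 (DIABLO); for averaged mTORi from -0.042 to 0.20 (XIAP), -0.047 to 0.043 (DIABLO) and -0.26 to 0.00063 (TNFAIP3); for the line difference in the BETp effect from -0.065 to 0.49 (CASP9), -0.10 to 0.53 (CFLAR) and -0.19 to 0.38 (XIAP); and for that in the mTORi effect from -0.094 to 0.13 (CASP8), -0.34 to 0.21 (CASP9), -0.38 to 0.25 (CFLAR) and -0.033 to 0.22 (BIRC2). Without crossing 0, combination values ranged from -0.49 to -0.086 for CASP8, -0.39 to -0.16 for CASP9, -0.59 to -0.23 for APAF1, -1.39 to -0.61 for FAS and 0.12 to 0.48 for HTRA2.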
